A study of Mus with 6 samples.

Results

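CITED proteins are transcriptional coactivators without a DNA-binding domain of their own. They attach to the acetyltransferases CBP and p300 (Crebbp and Ep300) and to DNA-binding factors such as TFAP2. Cited2 is known as a brake on HIF-1 activity, since its protein takes the p300 surface that HIF-1α needs. Stathmins bind tubulin dimers and promote the shortening of microtubules, and phosphorylation by mitotic and calcium-dependent kinases switches them off. Stmn1 is abundant in dividing cells, T cells and leukemias included, whereas Stmn4 is known mainly from neurons, where its N-terminus anchors it to membranes.

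Of 6 named genes of these families, 4 were analysed among the 10995 genes measured: Cited1, Cited2, Stmn1 and Stmn4. Cited4 and Stmn3 were not analysed here. The group was chosen by measured values, since Cited1 and Stmn4 had been seen among the largest rises in these same libraries and the others were added as their relatives by family name. The change of Cited1 and of Stmn4 is therefore given as a description with no test.

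The libraries came from wild-type (WT) mouse CD4+ T cells of the spleen, isolated as naive cells and activated for 3 days in the presence of IL-2 (100 U/mL) by anti-CD3 (5 μg/mL) together with anti-CD28 (2 μg/mL). The cells of one group received an antibody that neutralizes VEGF-B and those of the other normal goat IgG, each at 1 μg/mL, with 3 RNA-Seq libraries a group. The comparison asks what the loss of VEGF-B, which activated T cells secrete, does to their RNA. The labels do not say whether the libraries came from separate mice or cultures, so that the spread between them may be technical. No value used here measures how far VEGF-B was neutralized.

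The table does not name its unit. Its values were taken as FPKM, that is, reads per length of transcript and per size of library, because they are not whole numbers and come from StringTie and Ballgown. The order of genes by level, and the ratios and shares between genes below, rest on that reading. The number of reads is unknown. The 8 CD4+ T cell markers summed to between 504 and 577 FPKM in every library. Within this sum, Thy1 was at 14.5 to 17.5 FPKM with anti–VEGF-B and at 24.5 to 34.7 with IgG. Cd3e (9.60 to 12.9 against 14.2 to 18.6) and Cd5 (56.3 to 69.9 against 71.9 to 93.4) were also lower. The groups were apart in this direction for 38.5% of all genes tested. They overlapped for the other markers, Cd4 included. Of the 2 CD8+ T cell markers, Cd8a reached at most 0.182 FPKM, while Cd8b1 was at 2.27 to 4.51 FPKM. The monocyte gene Lyz2 was at 16.4 FPKM in IgG replicate 3 and at 3.26 to 4.19 in the other libraries. The 4 monocyte and macrophage markers summed to between 12.8 and 28.8 FPKM with IgG and between 11.4 and 12.9 with anti–VEGF-B, and the B cell gene Cd79b was at most 1.34 FPKM. Each comparison of the 4 genes is therefore also given without IgG replicate 3. The genes tested were the 8816 that averaged 1 FPKM or more. limma on log2(FPKM + 1) with Benjamini-Hochberg adjustment called 28.7% of them (adjusted p under 0.05), 23.8% lower and 4.87% higher with anti–VEGF-B. The median log2 fold change of all these genes was -0.15, and values relative to it are given where they matter.

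Cited1 (ENSMUSG00000051159.16, chromosome X of GRCm38, 102247381 to 102252181, minus strand) was at 6.59, 6.92 and 8.96 FPKM in the anti–VEGF-B libraries and at 3.35, 2.32 and 3.56 FPKM in the IgG libraries. Every anti–VEGF-B value lay above every IgG value, as it did for 10.5% of all genes tested. The means were 7.49 ± 1.28 and 3.07 ± 0.665 FPKM (SD, n = 3 each), a ratio of 2.43. On the log2(FPKM + 1) scale, which understates changes of genes at low FPKM, the difference was 1.06 (standard error 0.151), and 1.21 when counted from the median of all genes. It ranked 8 among the 8816 changes ordered from the largest rise. Without IgG replicate 3 the difference was 1.15.

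Cited2 (ENSMUSG00000039910.10, chromosome 10, 17723218 to 17725674, plus strand) was the most abundant of the 4 genes in every library. It was at 29.7, 36.5 and 27.9 FPKM with anti–VEGF-B and at 32.9, 29.9 and 28.7 FPKM with IgG, so that the groups overlapped. The means of 31.4 ± 4.52 and 30.5 ± 2.18 FPKM (SD, n = 3 each) did not differ beyond this spread. The log2 fold change was 0.031 with a 95% interval from -0.21 to 0.27 (standard error 0.107, limma adjusted p = 0.843), and a two-sided exact permutation test gave p = 0.9. The difference was -0.011 when IgG replicate 3 was left out and -0.080 for anti–VEGF-B replicate 2, and above 0 under the 4 other scalings of the libraries.

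The balance between both CITED genes therefore differed between the treatments, and this ratio does not depend on a factor that scales a whole library. Cited2 exceeded Cited1 by 9.84, 12.9 and 8.06 times in the IgG libraries and by 4.51, 5.27 and 3.11 times in the anti–VEGF-B libraries. Cited1 contributed 7.19% to 11.0% of their summed FPKM with IgG and 15.9% to 24.3% with anti–VEGF-B. Cited2 remained the larger contributor in all 6 libraries. As Cited1 was chosen for its rise, this shift is given without a test.

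**Figure D1:**
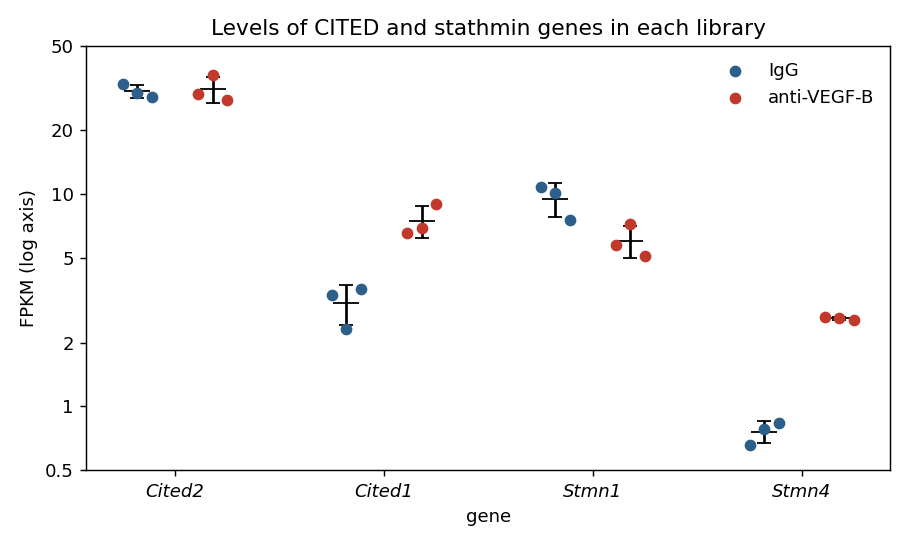
FPKM (log axis) of Cited2, Cited1, Stmn1 and Stmn4 in the 3 IgG (blue) and 3 anti–VEGF-B (red) libraries, with each group's mean and SD as black bars. The groups overlap for Cited2 only; Stmn1 is lower and Cited1 and Stmn4 are higher with anti–VEGF-B.

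Stmn4 (ENSMUSG00000022044.14, chromosome 14, 66344296 to 66361680, plus strand) was the least abundant of the 4 genes. It was at 2.65, 2.60 and 2.57 FPKM in the anti–VEGF-B libraries and at 0.660, 0.785 and 0.838 FPKM in the IgG libraries. The values of each group lay close together and far from those of the other. The means were 2.61 ± 0.0410 and 0.761 ± 0.0914 FPKM (SD, n = 3 each), a ratio of 3.42. On the log2(FPKM + 1) scale the difference was 1.04 (standard error 0.0961), which ranked 9 among all rises, and with a pseudocount of 0.1 FPKM it was 1.66. The gene was below 1 FPKM in each IgG library, so that it passed the filter through its anti–VEGF-B values. Its spread within the groups was smaller than that of 96.8% of 2350 genes of similar level (within 0.5 on the log2 scale). As Stmn4 was chosen from these same values, this spread is a description and no support for its rise. Without IgG replicate 3 the difference was 1.07.

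Stmn1 (ENSMUSG00000028832.11, chromosome 4, 134468320 to 134473843, plus strand) went the other way. It was at 5.77, 7.21 and 5.14 FPKM with anti–VEGF-B and at 10.9, 10.1 and 7.58 FPKM with IgG, with IgG replicate 3 nearest to the anti–VEGF-B libraries. The groups did not overlap, as was the case in this direction for 38.5% of all genes tested. The mean fell from 9.53 ± 1.72 to 6.04 ± 1.06 FPKM (SD, n = 3 each). This was a log2 fold change of -0.58 with a 95% interval from -0.91 to -0.24 (standard error 0.149, limma adjusted p = 0.0220), where 23.8% of all genes were called lower. Counted from the median of all genes it was -0.43, and it ranked 660 from the largest fall. A two-sided exact permutation test gave p = 0.1, the smallest that 3 against 3 libraries allow.

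The call of Stmn1 was lost under several alternatives. Its adjusted p from limma was 0.0769 with quantile normalization, 0.0814 with median centring and 0.0717 with cyclic loess. Leaving out anti–VEGF-B replicate 1 gave 0.0597 and replicate 3 gave 0.0782, while leaving out IgG replicate 1 gave 0.0568 and replicate 2 gave 0.0647. Without IgG replicate 3 the difference was -0.72 (limma adjusted p = 0.0159), and in every fit the value was below 0.

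With opposite signs, both stathmin genes came closer in level. Stmn1 exceeded Stmn4 by 16.4, 12.9 and 9.04 times in the IgG libraries and by 2.18, 2.77 and 2.00 times in the anti–VEGF-B libraries. Stmn4 made up 5.73% to 9.96% of their summed FPKM with IgG and 26.5% to 33.3% with anti–VEGF-B. The sum itself ran from 8.42 to 11.5 FPKM with IgG and from 7.71 to 9.81 FPKM with anti–VEGF-B, and these ranges overlapped. Stmn4 was chosen for its rise, so this shift too has no test.

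**Figure D2:**
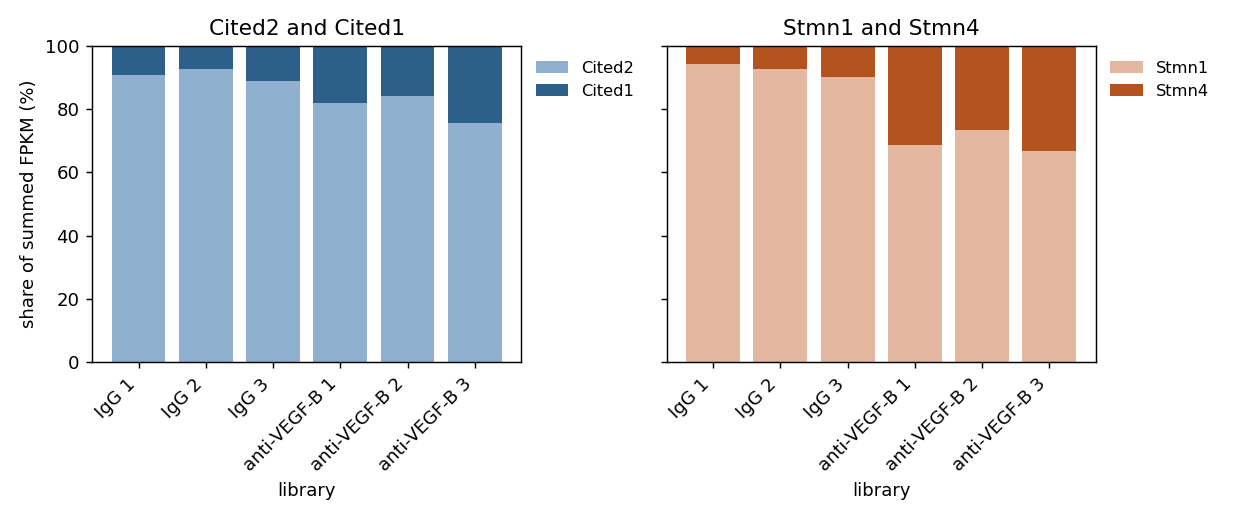
Share (%) of each gene in the summed FPKM of Cited1 with Cited2 (left) and of Stmn1 with Stmn4 (right), with 1 bar for each library. Stmn4 reaches at most 9.96% in the IgG libraries and at least 26.5% in the anti–VEGF-B libraries, and Cited1 at most 11.0% and at least 15.9%.

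By level, the order Cited2, Stmn1, Cited1, Stmn4 held in each IgG library. With anti–VEGF-B, Cited1 was above Stmn1 in replicates 1 and 3 and below it in replicate 2, and the ranges of both overlapped. Among the 10995 genes, Cited2 ranked between 1006 and 1321 in the 6 libraries and Stmn1 between 3046 and 4527. Cited1 ranked between 3249 and 4032 with anti–VEGF-B and between 5987 and 7402 with IgG. Stmn4 ranked between 6218 and 6353 and between 9228 and 9620, respectively.

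**Figure D3:**
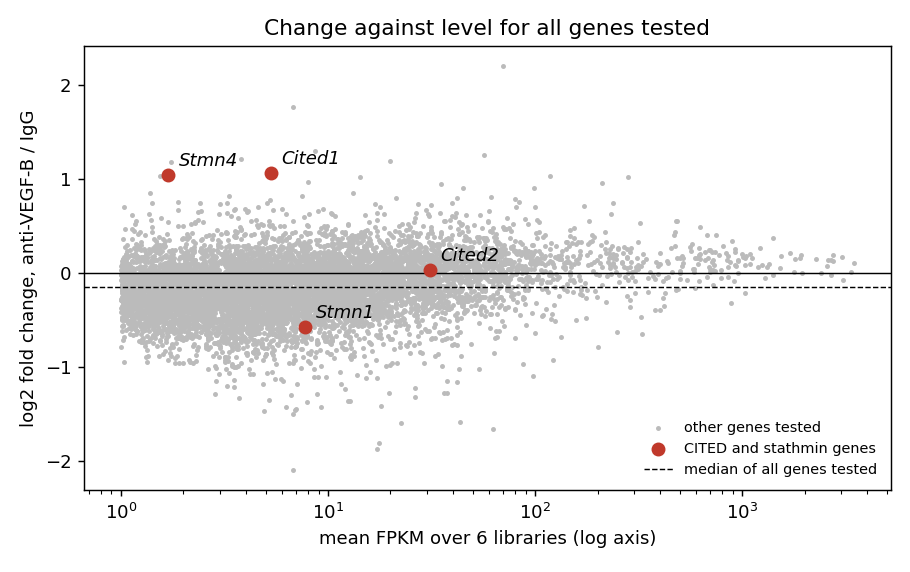
Log2 fold change of anti–VEGF-B against IgG for the 8816 genes tested, plotted against their mean FPKM (log axis), with the 4 CITED and stathmin genes in red and the median of all genes (-0.15) as a dashed line. Cited1 (1.06) and Stmn4 (1.04) lie near the top edge at low levels, Cited2 (0.031) above the median and Stmn1 (-0.58) below it.

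No other RefSeq gene of GRCm38 overlapped the position of any of the 4 genes. RefSeq lists 6 transcripts for Stmn4, 4 for Cited1 and 1 each for Cited2 and Stmn1, and the single value per gene does not separate them. The nearest analysed gene on each side gave the setting of each locus. Paqr7, which encodes a membrane progestin receptor, begins 22.9 kb after Stmn1 on the same strand. Its level was 0.696 ± 0.0999 FPKM with IgG and 2.06 ± 0.254 FPKM with anti–VEGF-B, a log2 difference of 0.85 and opposite in sign to that of Stmn1. Like Stmn4 it passed the filter through its anti–VEGF-B values, so no test is given. Pafah2, on the other side, had a mean under 1 FPKM and was not tested. Trim35, a ubiquitin ligase gene that ends 32.9 kb before Stmn4 on the same strand, fell from 4.15 ± 0.956 to 2.11 ± 0.151 FPKM (a log2 difference of -0.71, limma adjusted p = 0.00950), opposite to Stmn4. Dpysl2, 441 kb beyond Stmn4, had -0.34 (adjusted p = 0.0334) and was not called under any of the 4 other scalings. Around Cited1, Rps4x had 0.16 (limma adjusted p = 0.253) and the deacetylase gene Hdac8 -0.32 (adjusted p = 0.103). The nearest genes to Cited2 were farther off. Vta1, 3018 kb before it, had 0.0042 (limma adjusted p = 0.973) and Heca, 143 kb after it, 0.028 (adjusted p = 0.884).

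The tested genes with the most similar pattern were found by Pearson's r of log2(FPKM + 1) over the 6 libraries, which describes shared differences between the treatments as well as between replicates. For Cited1 these were Ccng2 (r = 0.997), which encodes the unconventional cyclin G2 of non-dividing cells, Smox (0.996), a spermine oxidase gene, and Fth1 (0.995), which encodes the ferritin heavy chain. For Stmn4 they were the splicing factor gene Isy1 (0.999), Hs2st1 (0.998) and Plekha2 (0.997). For Stmn1 they were Zc3h18 (0.996), Phgdh (0.993), whose product opens the serine synthesis pathway, and Lad1 (0.991). For Cited2 they were Vps51 (0.978), Agap3 (0.968) and Bcr (0.961). An r over 0.95 was reached by 207 genes for Cited1, 155 for Stmn4, 138 for Stmn1 and 6 for Cited2. The 3 genes named for Cited1 had log2 fold changes of 0.28, 0.48 and 0.49, smaller than its own.

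Of a list of 12 genes for CBP and p300, for transcription factors that CITED proteins work with and for the HIF subunits that compete with Cited2 for p300, 8 were tested. Of these, 1 was called higher and 1 lower, each 12.5%, where 4.87% of all genes were called higher and 23.8% lower. Hif1a, the oxygen-regulated subunit of HIF-1, rose from 167 to 217 FPKM (a log2 difference of 0.38, limma adjusted p = 0.0139). Epas1, another HIF subunit gene, moved the opposite way but was not called (log2 fold change -0.37, limma adjusted p = 0.0632). Its groups overlapped, and its mean was 4.80 FPKM after neutralization against 6.46 in the IgG libraries. Ep300, at 28.7 FPKM with IgG, fell to 23.2 (log2 fold change -0.30, limma adjusted p = 0.0475), but it was not called under any of the 4 other scalings. Its paralog Crebbp had 0.11 (limma adjusted p = 0.416) and the TGF-β mediator Smad3 0.19 (adjusted p = 0.137), and 6 genes in all were not called. The median of the list was 0.17, against -0.15 over all genes. The counts depended on the scaling, with 5 called higher under median centring (Smad3 included) and 3 each under quantile normalization and cyclic loess. Of all genes, these scalings called 1365, 880 and 852 higher, respectively, against 429. Of 21 HIF target genes, 20 were tested, and 6 were called higher (30%, against 4.87% of all genes) and 1 lower (5%, against 23.8%), with a median of 0.19. Adm (0.74), Egln1 (0.53), Vegfa (0.45) and Aldoa (0.37) showed the largest rises, while Egln3, a HIF prolyl hydroxylase gene like Egln1, fell by 0.47 on the log2 scale. Pgk1, the most abundant of the list, had 0.13 (limma adjusted p = 0.262). The number called higher was 5 to 14 over the other scalings and 3 without anti–VEGF-B replicate 3. Over all genes it was 365 to 1365 and 164, respectively. Median centring, which gave the 14, also raised the number called higher among all genes from 429 to 1365. The median of the list lay closer to that of all genes under 2 scalings. It was 0.13 against 0.0077 with quantile normalization and 0.13 against 0.0019 with cyclic loess, where the main fit had 0.19 against -0.15.

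Tubulin is the target of stathmins. Of 14 tested tubulin genes, 1 was called higher, 1 lower and 12 were not called, where 28.7% of all genes were called. Their median was -0.045, against -0.15 over all genes. It was above 0 under each of the 4 other scalings, where the median of all genes also moved up, to between -0.096 and 0.049. In each of these fits it lay above the median of all genes. Tubb5, the most abundant, averaged 771 FPKM in the IgG and 893 in the anti–VEGF-B libraries (log2 fold change 0.21, limma adjusted p = 0.0907). Tuba1b rose from 227 to 273 FPKM (0.26, limma adjusted p = 0.0359) and Tube1, an epsilon tubulin gene, fell from 3.46 to 1.99 FPKM (-0.56, adjusted p = 0.0210), each called in 2 of the 4 other scalings.

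Among 14 tested genes of kinases and phosphatases that act on stathmin, 1 was called higher (7.14%) and 3 lower (21.4%), shares close to the 4.87% and 23.8% of all genes. The median was -0.11, and above 0 after all other scalings except that to Actb. In each of these fits it lay above the median of all genes, which moved as well. The catalytic subunit genes of protein kinase A, Prkaca (log2 fold change -0.65, limma adjusted p = 0.0184) and Prkacb (-0.34, adjusted p = 0.0214), and of protein phosphatase 1, Ppp1ca (-0.34, adjusted p = 0.0241), fell. Ppp2ca, the catalytic subunit gene of protein phosphatase 2A, rose (0.29, limma adjusted p = 0.0190). Prkacb was not called under any of the 4 other scalings, and Ppp1ca was called under 2 of them. Of 15 other microtubule regulators tested, 1 was called higher (6.67%), 2 lower (13.3%) and 12 were not called. Kif2a, a kinesin gene whose product also shortens microtubules, rose (0.34, limma adjusted p = 0.0136). Tpx2 (-0.39) and Mapre1 (-0.29) fell, but neither was called under another scaling, and the most abundant, the katanin gene Katna1, had -0.0053 (adjusted p = 0.961).

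Stmn1 is known to follow cell division, and genes of proliferation were lower alongside it. Of 19 tested, 15 were called lower and 4 were not called, where 23.8% of all genes were called lower. The median was -0.46, or -0.31 relative to that of all genes. Among the 15, Ccna2 and Birc5 were under 1 FPKM in every anti–VEGF-B library and passed the filter through their IgG values. The calls of these genes are therefore not a test. Mki67, a marker of cycling cells, was at 1.95, 2.28 and 2.04 FPKM with anti–VEGF-B and at 6.40, 9.54 and 7.13 FPKM with IgG (log2 fold change -1.48, limma adjusted p = 0.00279). The replication helicase gene Mcm3 (-0.93), Rrm2 (-0.76) and Cdc20 (-0.64) followed, and the more abundant Pcna (-0.27) and Mcm6 (-0.39) were also lower. Pcna was called under 1 of the 4 other scalings and Mcm6 under 2. Those not called were E2f1 (0.0060), Plk1 (-0.20), Bub1 (-0.23) and Bub1b (-0.30). The number called lower was 7 to 9 over the other scalings, 9 without anti–VEGF-B replicate 1 and 6 without anti–VEGF-B replicate 3. Over all 8816 genes the number called lower also dropped, from 2099 to 807 to 1309, 1367 and 695, respectively. The part of fewer dividing cells in the fall of Stmn1 was not tested, and in bulk RNA fewer cells of a kind cannot be told apart from less RNA per cell.

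As Stmn4 is best known from neurons, 17 genes of neurons and of the REST repressor that silences them elsewhere were looked at, and 4 were tested. Rest averaged 51.4 FPKM in the IgG and 56.9 in the anti–VEGF-B libraries (log2 fold change 0.14, limma adjusted p = 0.183). Its corepressor gene Rcor1 rose (0.27, limma adjusted p = 0.0332). The neuronal tubulin gene Tubb3 (mean FPKM 1.64 for IgG, 1.75 for anti–VEGF-B) and the enolase gene Eno2 (3.16 and 2.34 FPKM) were not called. The neuronal genes Uchl1 and Elavl3 stayed under 1 FPKM in every library.

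How firm these calls were differed between genes. In the 6 fits that left out 1 library, Adm, Egln1, Vegfa, Kif2a, Mki67, Mcm3, Cdc20, Mcm6 and Trim35 were called every time. Hif1a, Egln3 and Tpx2 were called in 5 of them, Aldoa, Tube1, Ppp2ca and Rrm2 in 4, and Prkaca and Ppp1ca in 3. Ep300 and Rcor1 were called in 2, and Tuba1b, Prkacb, Mapre1, Pcna and Dpysl2 in 1. Without limma's sharing of variance between genes, none of these genes was called, as only 12 of all 8816 genes were, against 3208 at an unadjusted p under 0.05.

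**Figure D4:**
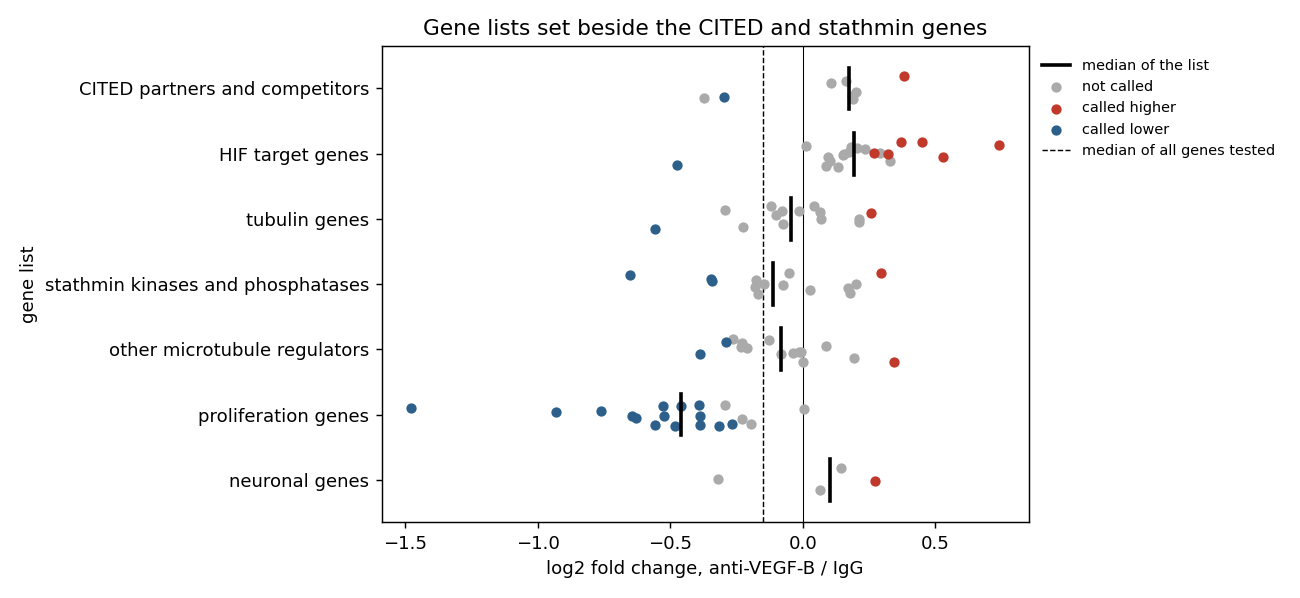
Log2 fold change of anti–VEGF-B against IgG for each tested gene of the 7 lists, coloured by its call (adjusted p under 0.05 in limma), with the list's median as a black bar and the median of all genes (-0.15) as a dashed line. Proliferation genes lie to the left (median -0.46), HIF target genes mostly to the right (median 0.19), and tubulin genes around 0.

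**Figure D5:**
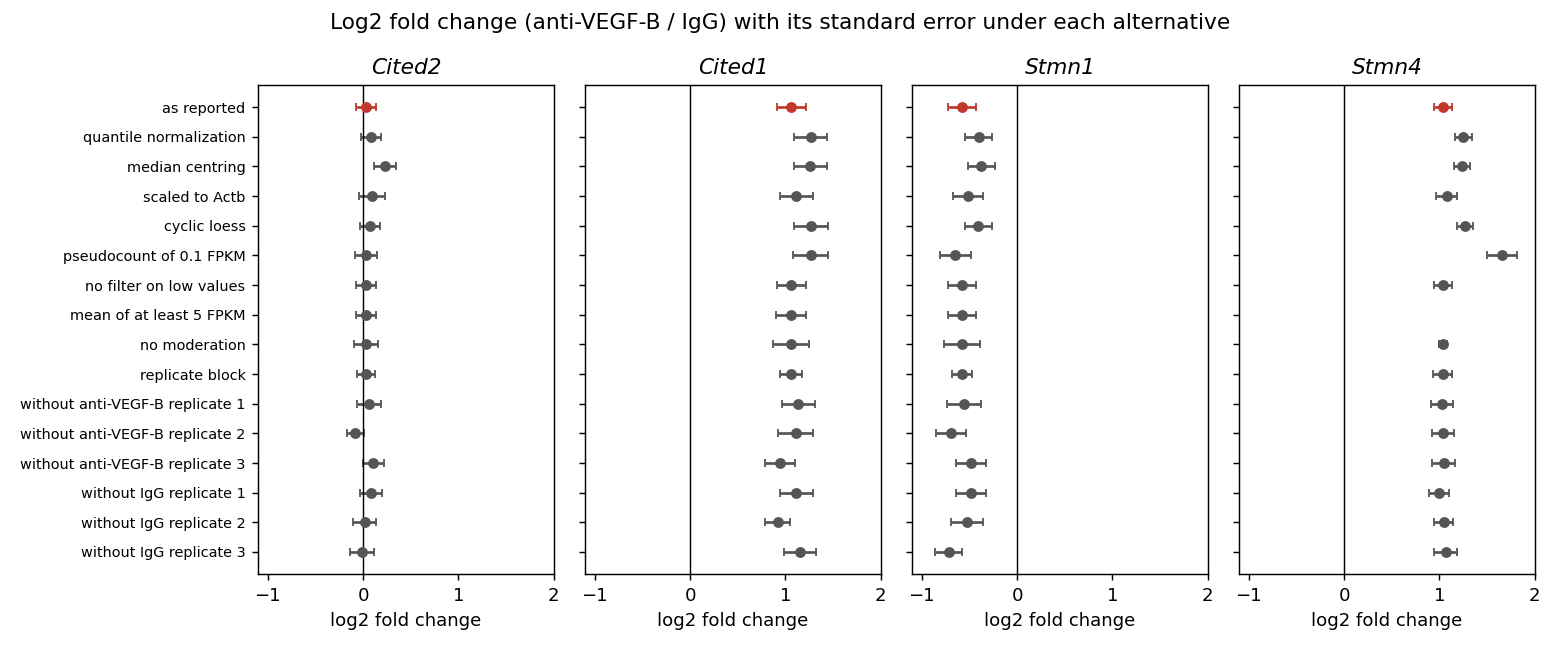
Log2 fold change of anti–VEGF-B against IgG, with its standard error, for each of the 4 genes as reported (red) and under each other scaling, filter, pseudocount, model or set of libraries (grey). Cited1 stays between 0.92 and 1.27, Stmn4 between 0.99 and 1.66, Stmn1 between -0.72 and -0.38, and Cited2 on either side of 0; Stmn4 has no value at a mean of at least 5 FPKM.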

How the data were processed

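Reads of the stranded libraries were aligned by the authors with hisat2 (GRCm38) and quantified by StringTie and Ballgown, and the deposited table holds 1 value per gene and library, taken here as FPKM. No unit is given in the table, which is named as raw data, but its values are not whole numbers, so no count model was run. No step between libraries is stated. Where a gene was under 0.3 FPKM in both of any 2 libraries, no ratio of its values was common to more than 1.37% of such genes, so whole reads were not recovered and the depth is unknown.

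The 8816 genes that averaged 1 FPKM or more over the libraries entered a fit of log2(FPKM + 1) with limma 3.58.1 in R 4.3.3 (empirical Bayes with trend, no covariate, 6 libraries), with Benjamini-Hochberg adjustment over all of them. On simulated data with these means and spreads and 200 changed genes, 89% were called at a log2 change of 1 and 36% at 0.5.

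The members, lists, tests and alternatives were chosen with earlier results of these data known, and the 7 lists were written by hand. Named genes were the members, the 3 most similar genes and the nearest gene on each side of each, and in each list up to 4 called genes of largest change in each direction and the 2 most abundant. Genes named beyond this rule were added after their values were seen. These were Crebbp, Epas1, Ccna2, Birc5, E2f1, Plk1, Bub1, Bub1b, Tubb3, Eno2, Uchl1, Elavl3, Lyz2, Cd3e, Cd4, Cd5, Thy1, Cd8a, Cd8b1 and Cd79b. Columns of values that match no sample: none.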

Additional observations from a re-analysis of the deposited data

How the results depend on the processing

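Cited1 stayed higher with anti–VEGF-B under all 15 alternatives run (log2 fold change 0.92 to 1.27) and Stmn4 under all 14 that gave it a value. Both were chosen for their rise in these same libraries, so these fits are no independent test of it. Stmn4 was 1.25 with quantile normalization, 1.24 with median centring, 1.27 with cyclic loess and 1.66 with a pseudocount of 0.1 FPKM. It could not be fitted at a mean of at least 5 FPKM. Cited2 was not called under any of 15 alternatives (adjusted p from 0.159 to 0.953 in limma) and ran from -0.080 to 0.11 with 1 library left out. Stmn1 was below 0 throughout but lost its call with quantile normalization (-0.40), with median centring (-0.38), with cyclic loess (-0.41) and with no moderation of the variance (-0.58, adjusted p = 0.121, against 0.0139 to 0.121 over the alternatives), and ran from -0.72 to -0.48 with 1 library left out.

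Of all genes, 2528 were called, 2099 lower and 429 higher. The count was 1674 when scaled to Actb (1309 lower, 365 higher), 1331 at a mean of at least 5 FPKM, 12 with no moderation, and 1121 by the rule of an unadjusted p under 0.05 and a change beyond 0.5 on the log2 scale. With 1 library left out it ran from 859 (without anti–VEGF-B replicate 3) to 2467, through 1359 when IgG replicate 2 was left out and 1679 for anti–VEGF-B replicate 1. Quantile normalization gave 913 lower and 880 higher, median centring 807 and 1365, and cyclic loess 938 and 852. The causes were not tested. Same-numbered libraries correlated weakly in their deviations (-0.030, 0.11 and 0.089), and 3 libraries a group can neither show nor exclude pairing by replicate number. Only 1 of the 3 anti–VEGF-B libraries correlated best with the IgG library of its own number. A replicate block gave 2578 calls and changed no call of Cited2 or Stmn1 (Stmn1 limma adjusted p = 0.0139). With the block the standard error was 0.104 for Stmn1 and 0.101 for Stmn4, against 0.149 and 0.0961 without it. With unknown depth, the precision of low values such as Stmn4 with IgG is known only from the spread of 3 libraries.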
